A study of Mus musculus with 8 samples.

Results

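The Ifi200 genes are a cluster of interferon-inducible genes on mouse chromosome 1, and 9 of them were followed here: Aim2, Ifi214, Ifi209, Ifi204, Mndal, Ifi211, Ifi203, Ifi202b and Ifi205. They were chosen by symbol, or by an older symbol of the same gene, and by probe position, out of 36095 gene names on the array. The choice was made with the higher level of some of them in transgenic stem and progenitor cells already in view, so that difference is described and not tested. Of the 9 genes, 8 had a probe named for the gene, with 15 probes of 55681 in all, and these 8 also passed the filter that kept 23231 features (1 probe per gene, well above background on at least 2 arrays). Ifi205 had no probe of its own and has no level here. Its transcript is listed for the Ifi211 probe, so the Ifi211 reading is less sure to come from 1 gene. In the deposited files Ifi214 is named BC094916, Ifi209 is named Pyhin1 and Ifi211 is named Mnda.

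The study profiled sorted bone marrow cells of mice aged 6 weeks on 8 one-colour arrays, 2 in each of 4 groups. KSL cells (Kit+ Sca-1+ cells without lineage markers) hold stem and early progenitor cells, and Gr cells (Gr-1 and Mac-1 positive) hold maturing granulocytes. Both were sorted from controls and from mice of the Vav-Etv2 genotype, which carry a transgene of the ETS factor Etv2 that Vav-iCre, a Cre recombinase driven in blood cells by the Vav promoter, switches on. The labels give all 4 groups the same mixed strain (B6/CBA and others), do not say which alleles or transgenes the control mice carry, and do not say whether an array holds 1 animal or a pool. The p-values therefore measure the spread between these arrays, which in KSL cells may be technical.

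Proteins of this family pair a HIN domain, which binds DNA, with a pyrin domain, which recruits partner proteins. Aim2 senses DNA in the cytosol and assembles the inflammasome with Pycard (ASC) and caspase-1, while Ifi202b encodes p202, which lacks the pyrin domain and can hold Aim2 in check. Interferon induces several of the genes, and the level of Ifi202b is known to differ widely between inbred mouse strains, being very low in C57BL/6.

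Because the genes arose by duplication, what each probe can read matters. Each probe is a 60-base oligonucleotide. The first 30 bases are shown for the probes of Ifi202b and Ifi214, which differed most, and for a pair of Ifi203 probes. The pair is the only Ifi203 probe that was lower in Vav-Etv2 KSL cells and the Ifi203 probe with the largest difference. No base is marked in them.

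Ifi202b probe 1: ctgctcaaatataatacatacaacatccag
Ifi202b probe 2: attgacctcaaatgcagatgagtggtttct
Ifi214 probe: ttgctttaaaactgggtctgcagaccaagg
Ifi203 probe 1: cacaattgctttctgatctgtactgacagt
Ifi203 probe 3: atttctgtaaagcagtgtgcctttggcact

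On build mm9 these lie on the minus strand at chr1:175892789-175892848, chr1:175892953-175893982 (a span that holds more than the 60 bases of the probe), chr1:175451443-175451502, chr1:175850536-175850595 and chr1:175852372-175852430. No probe shared a run of more than 11 bases with a probe of another of these genes. Probes were compared only with each other, so this does not show whether a probe matches the transcript of another gene. The files list 1 transcript in common for the Ifi214 probe and Ifi209 probe 1, and 1 in common for Ifi203 probe 3 and a probe of the transcript ENSMUST00000111210, so these readings are less sure to come from 1 gene. The files give no exon for a probe.

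Levels below are log2 signals relative to the array's 75th percentile, which was between 136 and 301 signal units on the 8 arrays. On each array 47.7% to 55.5% of probes were well above background, and no probe was saturated. Etv2 was not well above background on either KSL control array or on Gr control 1. It was well above background on all 4 Vav-Etv2 arrays, at levels from -1.30 to 0.19, and also on the array labelled Gr control 2, at -0.55. That array goes against its label, and results that use Gr control arrays are given with and without it, for all 8 genes or for the lists as a whole. Xist was between 0.27 and 2.69 on the KSL arrays and on replicate 1 of each Gr group but at -7.10 and -6.83 on replicate 2 of each Gr group, so sex and replicate number coincide in Gr cells. The Y-linked gene Ddx3y was well above background on replicate 2 of each Gr group and on no other array, so the 2 replicates of a Gr group do not come from 1 animal. All KSL arrays lay on slide row 1 and all Gr arrays on slide row 2, so cell type and slide row cannot be told apart.

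In KSL cells, Ifi202b and Ifi214 were not well above background in the controls and were high on both Vav-Etv2 arrays. Ifi202b, the member without a pyrin domain, was at -6.19 and -6.57 on the KSL control arrays and at 2.38 and 2.41 on the KSL Vav-Etv2 arrays. The Vav-Etv2 level was at least 93.9-fold higher, reckoned against the lowest signals that counted as well above background on the control arrays. Ifi214 was at -5.10 and -4.69 in control KSL cells and at 0.68 and 1.10 in Vav-Etv2 KSL cells, at least 33.1-fold higher on the same reckoning. Within the control and Vav-Etv2 KSL groups the Ifi202b replicates lay 0.38 and 0.03 apart, the former between signals not well above background. The fitted differences were 8.77 (SE 3.00) and 5.78 (SE 0.54); limma pools the spread of all 4 groups, and the large SE of Ifi202b comes with the 10.9 between the replicates of Vav-Etv2 Gr cells.

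**Figure D1:**
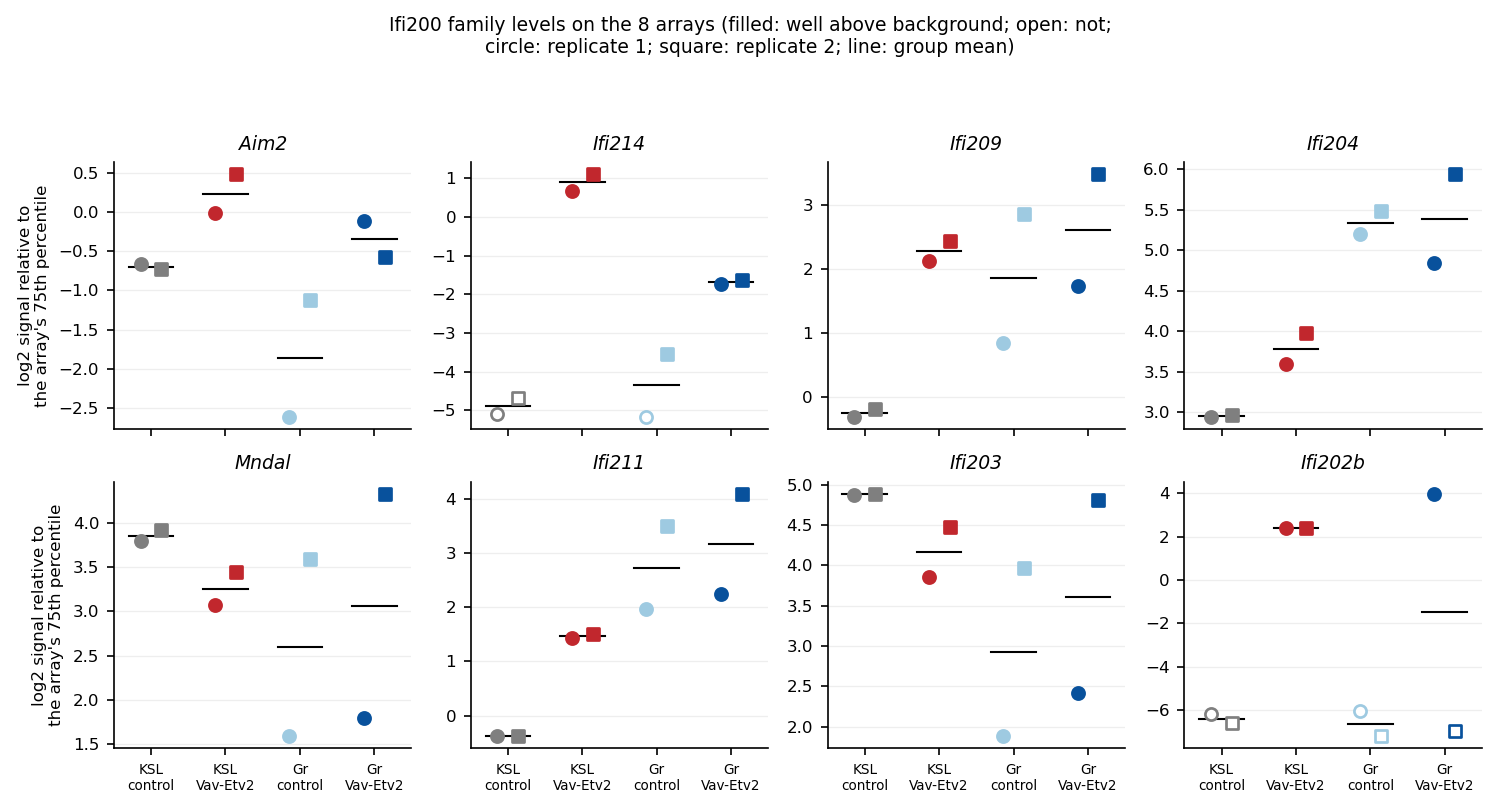
Each panel plots 1 Ifi200 gene, with the log2 level relative to the array's 75th percentile on the vertical axis and the 4 groups on the horizontal axis. Points are single arrays, filled where the probe was well above background, and lines are group means. Ifi202b was well above background on both KSL Vav-Etv2 arrays and on Gr Vav-Etv2 replicate 1, and lay between -7.19 and -6.04 on the other 5.

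Aim2, the cytosolic DNA sensor, had a smaller difference in KSL cells and was above background on every array. It was at -0.67 and -0.73 in controls and at -0.01 and 0.48 in Vav-Etv2 cells, a difference of 0.93 (SE 0.51). Ifi209 was at -0.30 and -0.19 in control KSL cells and at 2.12 and 2.43 in Vav-Etv2 KSL cells, a difference of 2.52 (SE 0.77). Both groups of KSL arrays were tight for Ifi209 and did not overlap.

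Ifi211 was at -0.37 and -0.38 in control KSL cells and at 1.43 and 1.51 in Vav-Etv2 KSL cells, a difference of 1.85 (SE 0.70). Ifi204 encodes p204, a regulator of differentiation and a DNA sensor in macrophages. It was at 2.94 and 2.96 in controls and at 3.59 and 3.98 in Vav-Etv2 cells, a difference of 0.83 (SE 0.41). The 2 remaining genes lay lower on both Vav-Etv2 arrays. Mndal, a relative of the human myeloid nuclear differentiation antigen, was at 3.79 and 3.92 in control KSL cells and at 3.07 and 3.45 in Vav-Etv2 KSL cells, a difference of -0.60 (SE 0.92). Ifi203 was at 4.87 and 4.89 in controls and at 3.86 and 4.47 in Vav-Etv2 cells, a difference of -0.71 (SE 0.91). In both genes the 2 KSL groups did not overlap, but the fitted difference was smaller than its SE.

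In all, 6 of the 8 genes were higher on both Vav-Etv2 KSL arrays than on both controls, where 26.1% of all features were, and 2 were lower, where 25.5% were. The median difference of the 8 genes was 1.39, beside 0.003 over all features tested. None of the 8 was called by limma at an adjusted p under 0.05 (0.0172% of all features were called), and nothing is read from these counts because the genes were chosen with this contrast in view. Under 1 alternative, normexp background correction, which adds an offset of 50, the Ifi202b difference was 4.54 and that of Ifi214 was 2.97. A bulk level cannot tell more RNA per cell from more cells of a type that expresses the gene. Markers of several other cell types moved with the same contrast. The summed level of 8 B lineage markers was 38.4 and 39.1 times the 75th percentile in control KSL cells and 114 and 146 times in Vav-Etv2 KSL cells, with 8 of 8 markers higher and Pax5 not above background in the controls. Of 7 endothelial markers, 6 were higher on both Vav-Etv2 arrays than on both controls, all but Kdr. Cdh5, for example, was at -3.75 and -3.66 in controls, at 3.53 on KSL Vav-Etv2 replicate 1 and at -1.60 on replicate 2. Their summed level, in which Kdr weighs most in controls, was 14.6 and 10.2 in controls, 55.8 on replicate 1 and 12.01 on replicate 2, and Ptprb was not above background in either control. The 5 monocyte and macrophage markers summed to 22.2 and 24.9 in controls and to 42.5 and 48.5 in Vav-Etv2 cells, with 4 of 5 higher on both arrays and Siglec1 not above background in the controls. Other lists lay lower on both Vav-Etv2 KSL arrays. The 7 markers of the KSL gate summed to 322 and 347 in controls and to 254 and 270 in Vav-Etv2 cells, with 5 of 7 lower on both arrays. The 6 T and NK markers summed to 6.06 and 6.12, then to 3.06 and 3.86 (4 of 6 lower). The 4 erythroid markers summed to 41.8 and 39.0, then to 17.8 and 24.6 (3 of 4 lower). Markers of the Gr gate split the Vav-Etv2 arrays, at 478 on replicate 1 and 1298 on replicate 2, beside 1180 and 1181 in controls. Dendritic markers did so too, at 269 and 333 beside 292 and 294 in controls. Mast and basophil markers were at 8.44 and 25.7 beside 22.5 and 23.9. The part of these markers in the family's levels was not tested.

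**Figure D2:**
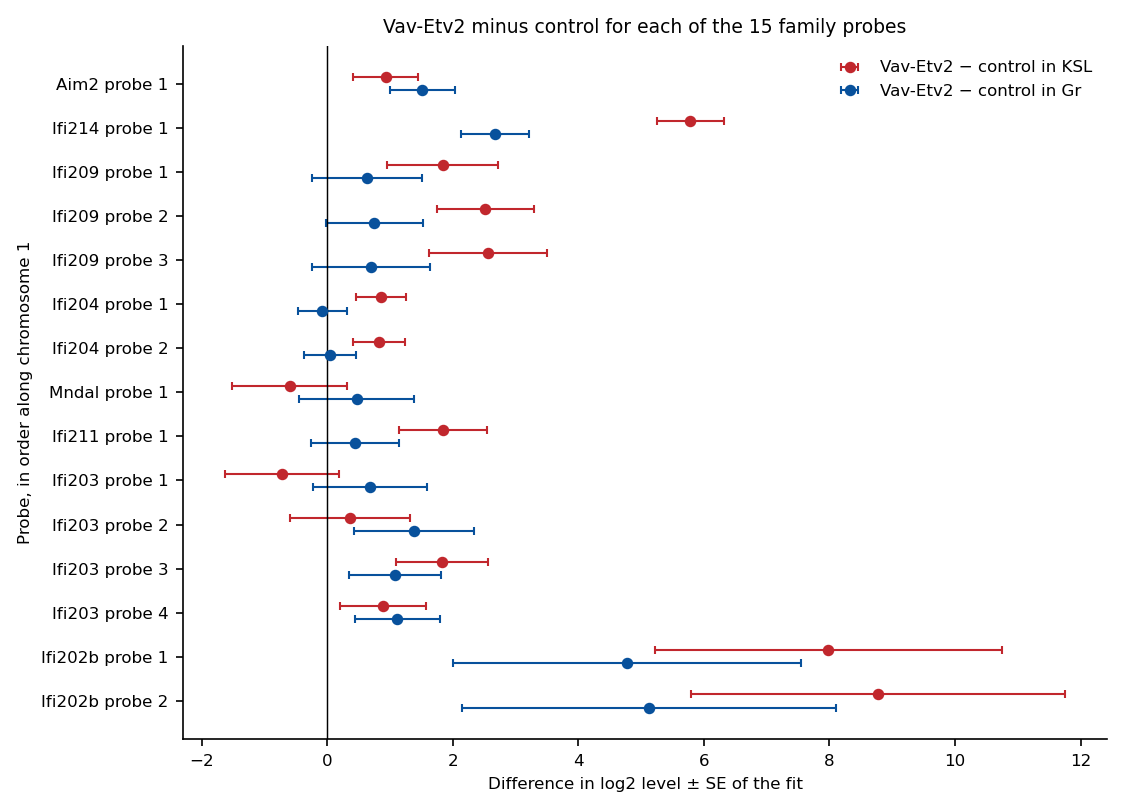
Each row is 1 of the 15 probes, in order along chromosome 1, and the horizontal axis is the difference in log2 level between Vav-Etv2 and control cells, with the SE of the fit as bars. In KSL cells both Ifi202b probes lay at 7.98 or above and the Ifi214 probe at 5.78, while the 4 Ifi203 probes spread from -0.71 to 1.83.

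Genes with several probes gave like differences between genotypes in KSL cells, except Ifi203. The 2 Ifi202b probes differed between genotypes in KSL cells by 7.98 (SE 2.77) and 8.77 (SE 2.98). The 3 Ifi209 probes gave 1.84, 2.52 and 2.57, and the 2 Ifi204 probes gave 0.86 and 0.83. The 4 Ifi203 probes, in order along the chromosome, gave -0.71, 0.36, 1.83 and 0.89, so its direction in KSL cells depends on the probe. Ifi203 probe 3, the one with the largest difference, was at -1.0 and -0.97 in control KSL cells and at 0.78 and 0.90 in Vav-Etv2 KSL cells. Ifi203 probe 1 stood for the gene in the fit because it was the brightest.

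In Gr cells the question was whether the same genes differed with genotype in granulocytes. None of the 8 passed the test (limma, Benjamini-Hochberg adjusted p 1.00 for each), where 0.00861% of all features did. All 8 differences were above 0, with a median of 0.72 beside -0.01 over all features, and only Aim2 and Ifi214 had both Vav-Etv2 Gr arrays above both controls (2 of 8, beside 5.83% of all features). None had both Vav-Etv2 arrays below both controls, beside 5.79% of all features. Ifi202b was well above background on Vav-Etv2 arrays only, and Ifi214 on Vav-Etv2 arrays and the array labelled Gr control 2. The filter thus favoured a difference above 0 for both. The genes were also chosen with earlier results of these data known, so these counts are a description. With the array labelled Gr control 2 left out, all 8 differences were above 0 and their median was 1.74, beside -0.09 over all features. Both Vav-Etv2 arrays then lay above the 1 remaining control for 6 of 8 genes, beside 28.8% of all features. For every gene but Ifi202b, that control lay below the array labelled Gr control 2. With the array labelled Gr control 1 left out instead, Ifi209, Ifi211, Mndal, Ifi203 and Ifi204 turned below 0.

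Ifi214 was at -5.16 and -3.54 on the 2 arrays labelled Gr control and at -1.74 and -1.62 on the Gr Vav-Etv2 arrays. Both Vav-Etv2 arrays lay above both controls, and only the array labelled Gr control 2 was well above background among controls. The difference was 2.67 (SE 0.54; limma, adjusted p 1.00), or 3.43 between arrays numbered 1 and 1.91 between arrays numbered 2. With the array labelled Gr control 2 left out, the difference was 3.48 (adjusted p 0.193). Aim2 was at -2.61 and -1.12 in the arrays labelled Gr control and at -0.12 and -0.58 in Vav-Etv2 Gr cells. Its difference was 1.52 (SE 0.51; adjusted p 1.00), or 2.49 and 0.54 within the replicate numbers, and 2.26 (adjusted p 0.369) with the array labelled Gr control 2 left out.

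Ifi202b split the Vav-Etv2 Gr arrays. It was at -6.04 and -7.19 on the arrays labelled Gr control, at 3.98 on Gr Vav-Etv2 replicate 1 and at -6.94 on Gr Vav-Etv2 replicate 2, the latter not above background. The second Ifi202b probe read the same way, at 3.46 and -6.67 on the Vav-Etv2 arrays. The fitted difference of 5.13 (SE 3.00; limma, adjusted p 1.00) thus averages 1 array with and 1 array without signal, 10.01 between arrays numbered 1 and 0.25 between arrays numbered 2. It was 10.6 without Gr Vav-Etv2 replicate 2, -0.33 without replicate 1, and 4.55 with the array labelled Gr control 2 left out. Each of these fits leaves a lone array in 1 Gr group, so only the size is given. Ifi202b passed the filter only through Vav-Etv2 arrays, and leaving out replicate 2 keeps only the Vav-Etv2 Gr array with signal. Gr Vav-Etv2 replicate 1 was also the array on which B lineage markers summed highest among Gr arrays, at 31.4, beside 10.1 and 6.84 on the arrays labelled control and 7.81 on Gr Vav-Etv2 replicate 2. Markers of the KSL gate also summed highest on that array, at 88.4 beside 79.5 on the array labelled Gr control 1, the next highest. The same held for erythroid markers, at 22.1 beside 16.6. The other marker lists did not sum highest there. The part of any of these lists in the Ifi202b reading was not tested.

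The other 5 genes followed the replicate number in Gr cells more than the genotype. Ifi209 was at 0.85 and 2.86 on the arrays labelled Gr control and at 1.73 and 3.47 on the Vav-Etv2 arrays. Ifi211 was at 1.97 and 3.49, then at 2.24 and 4.10. Mndal was at 1.59 and 3.59, then at 1.80 and 4.33. In each of these genes both arrays numbered 2 lay above both arrays numbered 1, and the genotypes overlapped. The arrays numbered 2 were also those with the higher 75th percentile of signal, 301 and 273 beside 136 and 149 units, and without Xist; the part of either was not tested. Ifi203 was at 1.88 and 3.97 on the arrays labelled Gr control and at 2.41 and 4.80 on the Vav-Etv2 arrays, the same order. Ifi204 was at 5.20 and 5.48, then at 4.84 and 5.94. The differences between genotypes were 0.75 (SE 0.77) for Ifi209, 0.44 (SE 0.70) for Ifi211, 0.47 (SE 0.92) for Mndal, 0.68 (SE 0.91) for Ifi203 and 0.05 (SE 0.41) for Ifi204. Within the replicate numbers 1 and 2 they were 0.89 and 0.62 for Ifi209, 0.27 and 0.60 for Ifi211, 0.21 and 0.73 for Mndal, 0.53 and 0.83 for Ifi203, and -0.36 and 0.46 for Ifi204, so 4 of the 5 were above 0 in both. Leaving out 1 array unbalances the replicate numbers. All 5 turned below 0 when the array labelled Gr control 1, or Gr Vav-Etv2 replicate 2, was left out, and with the array labelled Gr control 2 left out they were 1.76, 1.20, 1.47, 1.73 and 0.19.

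Whether the genotype difference was unlike in the 2 cell types was also computed, as the KSL difference minus the Gr difference. It was 3.64 (SE 4.24) for Ifi202b, 3.11 (SE 0.76) for Ifi214, 1.77 (SE 1.09) for Ifi209, 1.41 (SE 0.99) for Ifi211 and 0.78 (SE 0.59) for Ifi204. It was below 0 for Aim2 (-0.59), Mndal (-1.07) and Ifi203 (-1.40). With the array labelled Gr control 2 left out, these values were 4.22 for Ifi202b, 2.30 for Ifi214, 0.76 for Ifi209, 0.65 for Ifi211, 0.64 for Ifi204, -1.33 for Aim2, -2.07 for Mndal and -2.44 for Ifi203. None of the 8 was called in this contrast (0.0043% of all features were), which contains the contrast that brought the genes forward and is given as a description.

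Between cell types of control mice, Ifi204 and Ifi211 were lower in KSL than in Gr cells. Ifi204 differed by -2.39 (SE 0.41; limma, adjusted p 0.00768) and Ifi211 by -3.11 (SE 0.70; adjusted p 0.0176), with the KSL arrays below both Gr arrays in each. These were 2 of 8 genes called, beside 34.7% of all features, and both lay in the lower direction, beside 18.4%. None was called higher, beside 16.3%. The dimmer Ifi204 probe, in a fit of each probe by itself, gave a larger difference of -4.86 (SE 0.40), so the size depends on the probe. Without regard to the test, 3 of 8 genes had both control KSL arrays above both Gr arrays (34.9% of all features) and 3 of 8 below (40.4%). Neither passed when either KSL control array was left out (adjusted p at most 0.0565 for Ifi204 and 0.0876 for Ifi211), and with the array labelled Gr control 2 left out the values were -2.25 (adjusted p 0.0203) and -2.34 (adjusted p 0.0498).

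Ifi209 was also lower in control KSL cells on every array, by 2.10 on the log2 scale, but did not pass (difference -2.10, SE 0.77; limma, adjusted p 0.0739). Ifi203 (1.95, adjusted p 0.136), Mndal (1.26, adjusted p 0.312) and Aim2 (1.17, adjusted p 0.116) lay higher in control KSL cells without passing. With the array labelled Gr control 2 left out, Aim2 differed by 1.91 (adjusted p 0.0137) and Ifi203 by 3.00 (adjusted p 0.0497), so the call of Aim2 changes with that array. That fit chose the probe of each gene anew; with the probes of the 8-array fit kept, Ifi203 (adjusted p 0.0513) and Ifi211 (adjusted p 0.0515) missed the threshold narrowly. Ifi202b (0.24, adjusted p 0.956) and Ifi214 (-0.54, adjusted p 0.452) were at or near background in controls of both cell types, and their order carries no information.

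Among Vav-Etv2 cells, the order of Ifi214 was the reverse of Ifi204. Ifi214 was higher in KSL than in Gr cells by 2.57 (SE 0.54) and Ifi204 was lower by 1.61 on the log2 scale (difference -1.61, SE 0.41). These 2 of 8 genes were called, beside 24.3% of all features, as a description, since the KSL arrays that brought the genes forward are part of it. The dimmer Ifi204 probe gave -3.93 (SE 0.40) in a fit of each probe by itself. Ifi211 was lower in Vav-Etv2 KSL cells on both arrays (-1.70, SE 0.70), and the cell types overlapped for Ifi209, Mndal, Ifi203 and Ifi202b. In all, 2 of 8 genes lay higher in KSL cells without overlap (32.2% of all features) and 2 lay lower (37.6%). This comparison uses other arrays than the one in controls, and both share the coincidence of slide row with cell type.

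**Figure D3:**
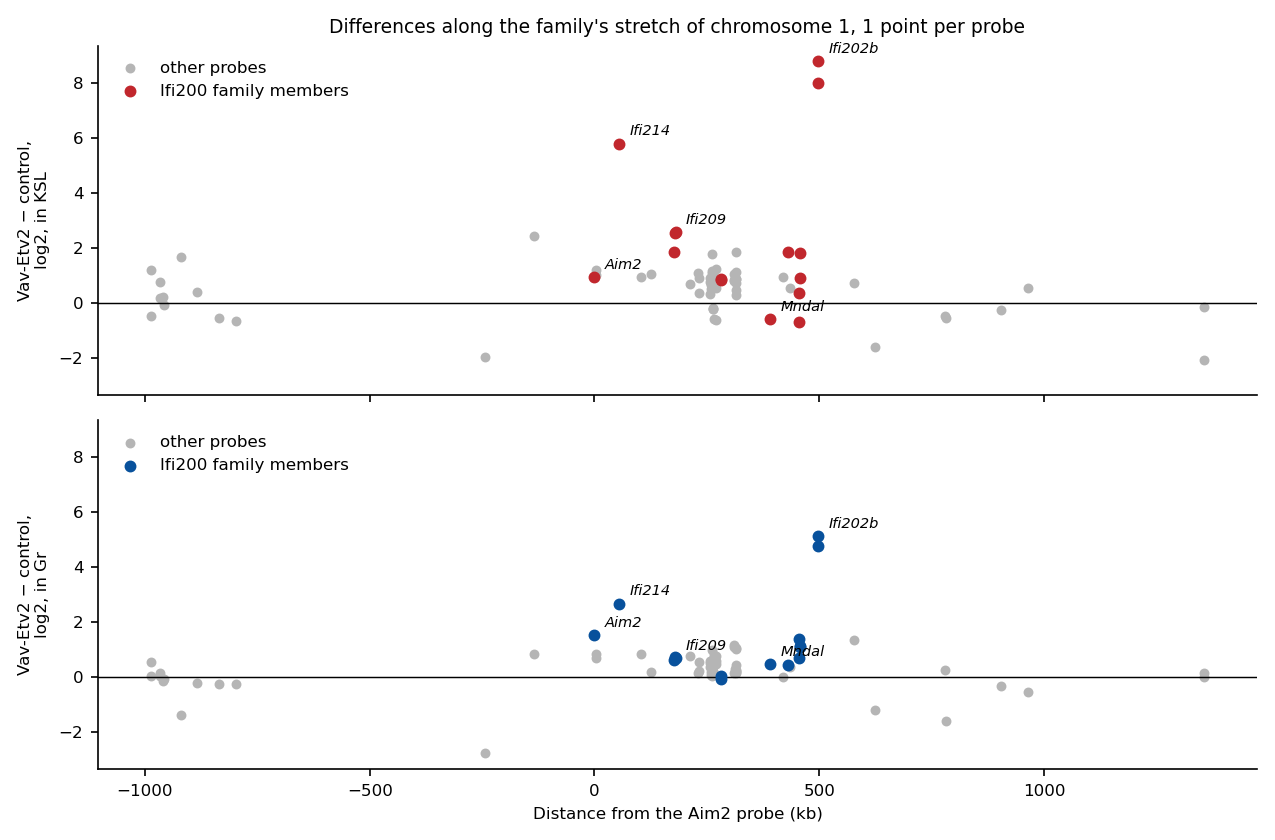
Both panels plot probes by distance in kb from the Aim2 probe, with the Vav-Etv2 minus control difference in log2 level on the vertical axis, for KSL cells above and Gr cells below. Coloured points are the family's probes and grey points other probes that passed the filter. Ifi214 and Ifi202b stood above the rest in both panels, and most grey points between them lay above 0.

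The family's stretch of chromosome 1 holds other transcribed features, including relatives of the same family. Between the outermost family probes 14 other features passed the filter. Of these, 13 had a positive difference in KSL cells, with a median of 0.82, and 14 had one in Gr cells, with a median of 0.38, where 50.3% and 48.5% of all features did. With the array labelled Gr control 2 left out, 14 of 14 were positive in Gr cells, with a median of 1.18, where 44.8% of all features were. Each of these features was lower on the control that remained than on Gr control 2. Leaving that array out also unbalances the replicate numbers, so the larger median is not a reading of genotype alone. None was called in either cell type. Ifi213 was at -3.70 and -3.42 in control KSL cells and at -2.93 and -2.32 in Vav-Etv2 KSL cells, a difference of 0.93 (SE 0.58). Ifi207 differed by 0.76 (SE 0.92) and Ifi208 by 0.35 (SE 0.45). Several of these features are overlapping transcribed spans, so they are not independent readings.

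Within 1 Mb outside the outermost family probes, on either side, 16 features passed the filter. Of these, 7 were positive in KSL cells (43.8%, median -0.13) and 6 in Gr cells (37.5%, median -0.15), shares below those of all features, and 6 were also positive in Gr cells with the array labelled Gr control 2 left out. Among named genes, each taken by its brightest probe, the neighbours with the largest differences in KSL cells were of either sign. Ackr1, an atypical chemokine receptor of red cells and endothelium that lies 134 kb before Aim2, was at -3.06 and -2.73 in controls and at 1.29 and -2.23 in Vav-Etv2 KSL cells. Its difference of 2.42 (SE 1.28) rested on KSL Vav-Etv2 replicate 1, the array with the highest endothelial markers. Fcer1a, the mast cell and basophil IgE receptor chain, differed by -1.98 (SE 1.90), Cfap45 by 1.66 (SE 0.82) and Olfr429 by -1.62 (SE 0.93).

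The on and off pattern of Ifi202b was rare on the arrays. Across the 55681 probes, 29 (0.0521%) were well above background on the same 3 arrays as Ifi202b and on no other: both KSL Vav-Etv2 arrays and Gr Vav-Etv2 replicate 1. Of these, 3 have no position in the files, 1 of them a further Itln1 probe, and 5 lay on chromosome 1: both Ifi202b probes, 2 Itln1 probes and a probe of the transcript ENSMUST00000043170, about 2.45 Mb from Ifi202b. For Ifi214 the same count was 37 probes (0.0664%), over the 5 arrays on which it was well above background.

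**Figure D4:**
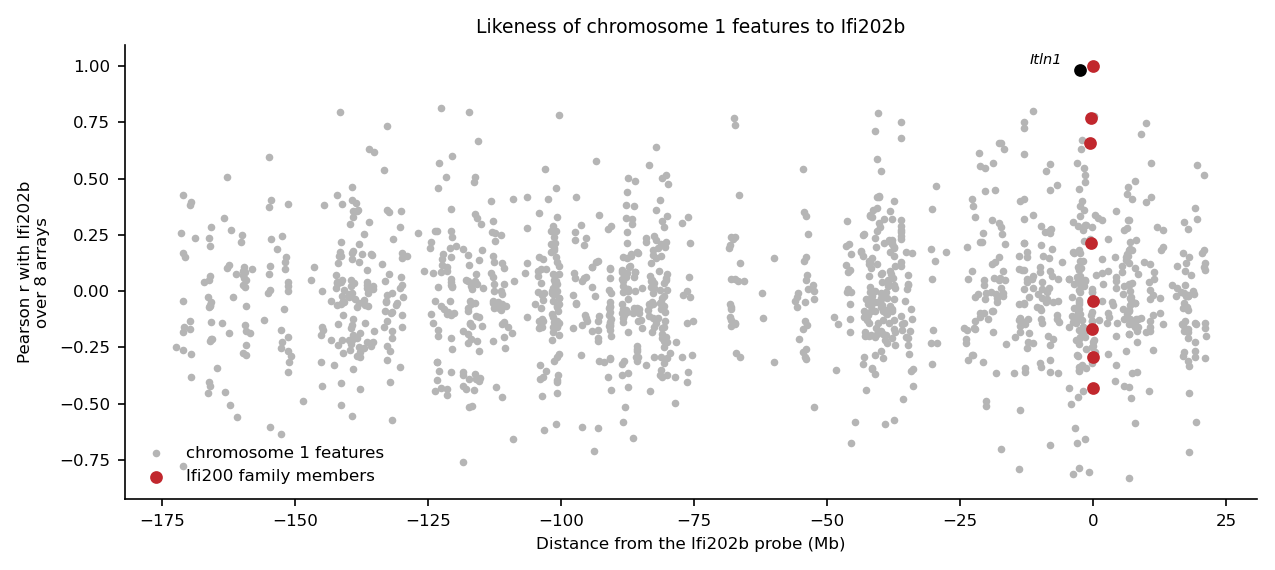
Each point is 1 feature on chromosome 1, placed by its distance in Mb from the Ifi202b probe and by the Pearson correlation of its level with that of Ifi202b over the 8 arrays. Outside the family, 2 of 1360 features reached 0.95, both about 2.45 Mb away, and Itln1, at 0.98, is marked.

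Likeness to a gene was measured as the Pearson correlation of log2 levels over the 8 arrays, as a description without a test, because the arrays share groups and scaling. For Ifi202b, whose arrays fall into 3 with signal and 5 without, it mostly measures that split. The named genes most like it were Itln1 (0.98), which encodes intelectin-1, a secreted lectin, on chromosome 1, Megf6 (0.97) on chromosome 4, 4930557J02Rik (0.96) on chromosome 5, Adgrg5 (0.95) on chromosome 8 and Zfp984 (0.95) on chromosome 4. Itln1 was at -5.90 and -4.40 in control KSL cells, at -0.11 and -0.35 in Vav-Etv2 KSL cells, at -5.68 and -6.47 on the arrays labelled Gr control, and at 0.38 and -5.88 on the Vav-Etv2 Gr arrays. Adgrg5, an adhesion receptor of blood cells, was well above background on all 8 arrays, and the same 3 arrays lay above the other 5: -1.15 and -0.90 in control KSL cells, 1.59 and 2.14 in Vav-Etv2 KSL cells, -2.87 and -2.19 on the arrays labelled Gr control, then 2.35 and -2.45. Of 23223 features outside the family, 7 reached a correlation of 0.95 with Ifi202b.

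**Figure D5:**
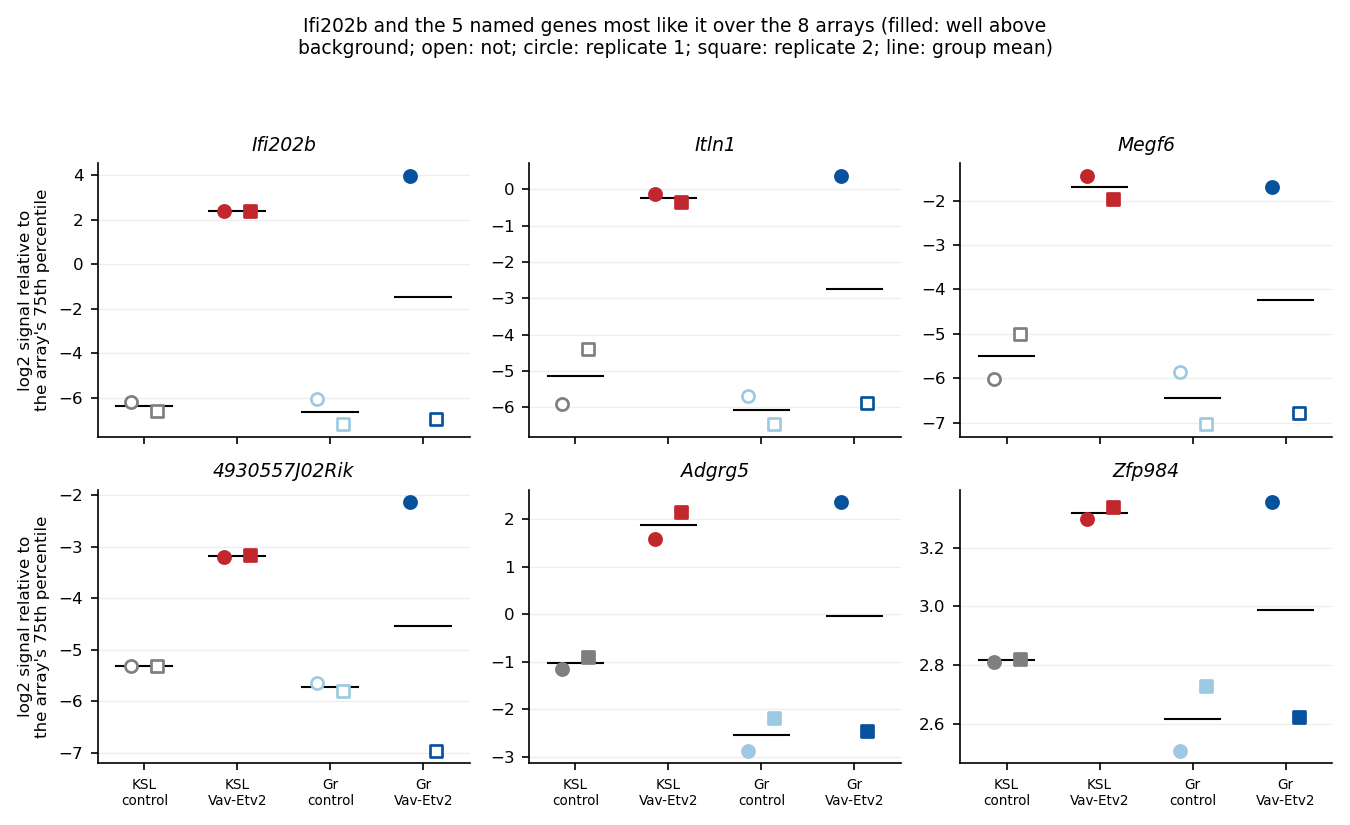
Panels plot the log2 level relative to the array's 75th percentile of Ifi202b and of the 5 named genes most like it, by group. Each has its own vertical scale, points are single arrays, filled where well above background, and lines are group means. In each panel both KSL Vav-Etv2 arrays and Gr Vav-Etv2 replicate 1 lay above the other 5 arrays.

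Ifi214 had other neighbours in pattern, spread over 5 chromosomes: Gpr18 (0.94), Stk11ip (0.94), Dpy19l4 (0.94), Prdm1 (0.92) and Adamts10 (0.91). Gpr18, a G protein-coupled receptor of lymphoid cells, was at -2.97 and -2.79 in control KSL cells and at -1.21 and -0.68 in Vav-Etv2 KSL cells, then at -2.96 and -2.61 on the arrays labelled Gr control and at -1.89 and -0.99 on the Vav-Etv2 Gr arrays. Prdm1, a transcriptional repressor of lymphocyte differentiation, moved over a smaller range, from -2.33 to -1.48. Ifi214 itself ranged over the 8 arrays from -5.16 to 1.10.

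The promoters of Ifi214, Ifi209 and Ifi202b are shown because these 3 genes had the largest differences in KSL cells. Sequences are the 250 bases before the RefSeq start on build GRCm38.p6 of the C57BL/6J reference, which is not the mixed strain of these mice, and their coordinates are not those of the probes. Capitals mark the core of an interferon-stimulated response element, searched as GAAANNGAAA on both strands.

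Ifi214: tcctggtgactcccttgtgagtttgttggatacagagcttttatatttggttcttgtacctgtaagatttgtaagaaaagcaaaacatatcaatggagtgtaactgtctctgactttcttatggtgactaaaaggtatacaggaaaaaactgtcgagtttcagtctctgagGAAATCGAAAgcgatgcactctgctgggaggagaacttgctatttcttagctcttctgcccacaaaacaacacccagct
Ifi209: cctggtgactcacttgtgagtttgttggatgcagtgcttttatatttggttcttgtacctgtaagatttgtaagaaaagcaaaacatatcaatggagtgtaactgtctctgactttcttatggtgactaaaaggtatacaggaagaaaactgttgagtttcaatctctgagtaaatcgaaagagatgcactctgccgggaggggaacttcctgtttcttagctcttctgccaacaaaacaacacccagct
Ifi202b: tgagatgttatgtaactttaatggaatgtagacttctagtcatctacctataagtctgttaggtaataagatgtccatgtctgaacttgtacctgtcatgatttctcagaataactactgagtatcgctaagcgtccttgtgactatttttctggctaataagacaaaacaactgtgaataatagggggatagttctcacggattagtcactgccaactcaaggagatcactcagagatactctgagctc

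They lie at chr1:173535958-173536207 on the minus strand, chr1:173630609-173630858 on the plus strand and chr1:173982845-173983094 on the minus strand. The windows of Ifi214 and Ifi209 were identical at 94.4% of aligned columns (237 of 251). The motif lay from 79 to 70 bases before the start of Ifi214, as GAAATCGAAA, and its letters were absent from the Ifi209 and Ifi202b windows. Elsewhere in the family it lay in windows of Mndal, Ifi211, Ifi203 and Ifi205 and not in that of Aim2, and 2.98% of 32851 promoter windows hold it. Ifi204 had no entry. The window of Ifi202b held a gamma-activated site, searched as TTCNNNGAA, which reads the same on both strands, from 148 to 140 bases before the start (7.02% of all windows hold 1). The window of Aim2 held the ETS core CCGGAA, from 166 to 161 bases before the start (12% of all windows hold it on either strand), and no other window of the family did. A match is a string of letters and not a measured site, and genes with and without the interferon motif were among those that differed most.

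The remaining interferon and DNA-sensing genes did not show the size of difference seen for Ifi214 and Ifi202b in KSL cells. Among 18 interferon receptors, kinases and factors none was called in KSL or Gr cells, with median differences of 0.19 and 0.02 (-0.08 in Gr cells with the array labelled Gr control 2 left out, where no list had a call). Irf9, a subunit of the factor that binds interferon-stimulated response elements, differed by 0.20 (SE 0.37) in KSL and 0.02 in Gr cells. Irf7, which amplifies the response, differed by 0.58 (SE 0.37) and -0.20, and Irf8, a myeloid and lymphoid factor, by 0.38 (SE 1.02) and 1.04.

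Among 30 other interferon-induced targets none was called in KSL or Gr cells, and the medians were -0.01 and 0.08 (-0.04 in Gr cells with that array left out). Isg15, a ubiquitin-like modifier, was at 3.38 and 3.24 in control KSL cells and at 3.25 and 3.49 in Vav-Etv2 KSL cells, a difference of 0.06 (SE 0.54). Ifit1 differed by -0.10 (SE 0.72) and Oasl2 by -0.24 (SE 0.58), both antiviral effectors. Mx1, an antiviral GTPase, was higher on both Vav-Etv2 KSL arrays, at 0.44 and 0.82 against -0.42 and -0.40, a difference of 1.04 (SE 0.80). Among 20 genes of cytosolic DNA sensing and the inflammasome none was called in KSL or Gr cells, and the medians were 0.06 and 0.05 (0.21 in Gr cells with that array left out). The Aim2 partners Pycard and Casp1 differed by 0.03 (SE 0.43) and 0.13 (SE 0.27) in KSL cells, the STING gene Sting1 by 0.21 (SE 0.64), and Il1b, the cytokine that caspase-1 matures, by -1.81 (SE 1.19).

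The same lists did differ between the cell types of control mice, the direction in which Ifi204 and Ifi211 lay. Beside these counts, 18.4% of all features were called lower in KSL cells and 16.3% higher. Of the 18 interferon receptors, kinases and factors, 9 were lower in KSL cells and none was higher, led by Irf7 (-2.70; limma, adjusted p 0.00372), Ifngr2 (-2.50, adjusted p 0.00522) and Usp18 (-1.77, adjusted p 0.0142). Of the 30 other interferon-induced targets, 13 were lower, among them Ifi27l2a (-2.84, adjusted p 0.00285) and Samd9l (-3.09, adjusted p 0.00454), and 2 were higher, led by Ifi44 (4.56, adjusted p 0.00127). Of the 20 DNA-sensing and inflammasome genes, 8 were lower, led by Naip2 (-3.23, adjusted p 0.00106) and Mefv (-4.07, adjusted p 0.0023), both sensors of innate immunity. Nlrp6 was called higher (1.55, adjusted p 0.0221) but was well above background on only 3 of the 8 arrays. It was at -3.03 and -2.87 in control KSL cells and at -4.37 and -4.63 on the arrays labelled Gr control. The latter signals lay near background, so little rests on this call. The median over all features in this comparison was -0.13, beside list medians of -1.08, -1.51 and -1.0. With the array labelled Gr control 2 left out, which leaves 1 Gr control array, the list medians were -1.23, -1.74 and -0.64. The median over all features was then -0.20.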

How the data were processed

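Per the file headers, each array's file gives spot intensity from Agilent Feature Extraction 10.7.3.1; its processed signal is background-subtracted and was not scaled between arrays. Quality columns hold other values, per the file headers: marks for control spots, for signals above background and for outliers. Values in the deposited table are log2, and 99.8% of them lay within 0.01 of the processed signals scaled to the 75th percentile and centred per probe within a cell type, so it served only as an alternative.

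Outlier spots were dropped, spots of a probe averaged, and each array's 75th percentile of log2 signal over non-control probes subtracted. A probe had to be above background on 2 or more arrays to be kept, and the probe with the highest mean stood for its gene. All 8 arrays entered 1 limma 3.58.1 fit in R 4.3.3, with 1 coefficient per group (4 residual degrees of freedom), and p-values were adjusted over 23231 features by Benjamini-Hochberg; an adjusted p under 0.05 counted as called. The script was tested on simulated data. Of 55681 probes, 26582 were named by accession, 2602 by symbol and 492 by an older symbol; 26005 kept the file's name. With 2 arrays a group, their number limits the precision.

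The 9 genes and the gene lists were chosen with earlier results of these data known. Besides them, the text names key genes of each list by role (1 is not reported here), the genes of a list with the smallest adjusted p, the genes most like Ifi202b and Ifi214, and the neighbours with the largest differences in KSL cells. The transcripts and probes that share a probe's transcript or its pattern over arrays were named after their values were seen. Promoters are from RefSeq, and 8 of the 9 genes matched. The arrays all came from 1 slide. Alternatives covered background correction, scaling, filters, probes, variance model, arrays fitted and the replicate block.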

Additional observations from a re-analysis of the deposited data

How the results depend on the processing

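Of the 8 genes, none was called in KSL cells for genotype in the main fit, where 0.0172% of all features were. Some other settings called members, which is not read as a result because this contrast is described and not tested. Over 19 alternatives, fits with 1 array left out among them, the difference ran from 4.54 to 8.96 for Ifi202b. For Ifi214 it ran from 2.97 to 5.99. In Gr cells none was called in any setting that kept both arrays of each Gr group. Between control cell types, 2 were called, 5 with a replicate block (Ifi209, adjusted p 0.0036, Ifi203, 0.00577, and Mndal, 0.0133, besides Ifi204 and Ifi211) and 0 to 4 with 1 array left out. Between Vav-Etv2 cell types, 2 were called, where 24.3% of all features were. Fewer were called with quantile normalization, no filter, a filter on all 8 arrays or only the arrays compared. There too the calls changed with 1 array left out, and these changes are not read as a result about the family.

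Ifi204 in Gr cells gave -0.013 as a mean over its 2 probes, which by themselves gave -0.075 and 0.048. Ifi202b between control cell types turned to -0.13 with normexp. With 1 array left out, the Gr differences ran from -0.33 to 10.59 for Ifi202b, -0.51 to 1.88 for Ifi203, -0.50 to 0.60 for Ifi204, -0.26 to 1.76 for Ifi209, -0.49 to 1.37 for Ifi211 and -0.79 to 1.73 for Mndal. Between control cell types they ran from -0.34 to 0.82 for Ifi202b and -1.36 to 0.27 for Ifi214. The causes were not tested. The replicate block rests on 2 pairs per cell type, whose deviations correlated at 0.07 in KSL and 0.66 in Gr cells; the numbers do not show pairs of animals.

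Limits are 2 arrays a group, signals near background for Ifi202b and Ifi214 in controls, whose size there is only bounded, and 1 slide row per cell type.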
